A study of Mus musculus with 4 samples.

Results

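The miR-181 family was examined in small RNA from exosome-enriched preparations of C8-D1A, an established mouse astrocyte cell line. The family was chosen with earlier results of these data known. Within it, every row of the deposited miRNA table that belongs to a miR-181a, miR-181b, miR-181c or miR-181d hairpin was taken by name, whatever its values. These were 5 of 389 rows, namely mmu-miR-181b-5p and its relatives mmu-miR-181a-5p, mmu-miR-181c-5p, mmu-miR-181d-5p and mmu-miR-181d-3p, written below without the species prefix. The study compared 2 control libraries with 2 heat stress libraries, all from wild-type cells of this single line, and its description calls the libraries of a group biological replicates. According to the labels, control cells were kept at 37 °C for 8 h (the culture methods give 2 h), and heat-stressed cells were held at 42 °C for 2 h and rewarmed at 37 °C for 6 h. The culture medium of both groups contained fetal bovine serum. Each deposited value is a normalized read count of 1 mature miRNA in 1 library. Higher values can come from more vesicles that carry a miRNA or from more copies per vesicle, and these cannot be told apart in such preparations.

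MicroRNAs are cut from hairpin precursors, and either arm of the hairpin, named 5p or 3p, can become the mature strand that guides Argonaute to messenger RNAs. Target choice rests mainly on the seed, bases 2 to 8 from the 5′ end, so miRNAs with the same seed form a family with overlapping targets. The miR-181 family is known from lymphocyte development and from brain, where astrocytes express it. Its described targets include the chaperone GRP78 (Hspa5) and survival proteins of the BCL-2 family.

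The mature sequences of the 5 members, taken from RefSeq on GRCm38.p6, are shown because the family is defined by them. Capitals mark the seed.
miR-181b-5p: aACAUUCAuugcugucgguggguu
miR-181a-5p: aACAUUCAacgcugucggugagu
miR-181d-5p: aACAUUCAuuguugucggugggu
miR-181c-5p: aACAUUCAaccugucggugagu
miR-181d-3p: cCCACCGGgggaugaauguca
The 4 miRNAs of the 5p arm share the seed ACAUUCA, and among 1679 distinct mature mouse miRNAs in the RefSeq table no other miRNA has it. The 3p member has a different seed, CCACCGG. Outside the seed the 5p arms differ at few bases, counted from 1 at the 5′ end. From miR-181a-5p to miR-181b-5p the changes are A9U, C10U and A21G, and miR-181b-5p is longer, at 24 against 23 bases. From miR-181b-5p to miR-181d-5p the change is C12U, with a length of 23 bases for the latter. MiR-181c-5p, at 22 bases, is 1 edit away from miR-181a-5p. The sources used here do not give the mismatches allowed when reads were assigned, so reads could be split between such close members.

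Of the 5 members, miR-181a-5p and miR-181b-5p can each come from 2 places in the genome. GENCODE M21 on GRCm38, whose match to the build behind the deposited values is unknown, has 6 miR-181 hairpins in 3 pairs. Mir181a-1 (chr1:137966455-137966541) and Mir181b-1 (chr1:137966639-137966718) lie 97 bases apart on the plus strand, within an exon of the lincRNA A430106G13Rik. Mir181a-2 (chr2:38852735-38852810) and Mir181b-2 (chr2:38853830-38853918) lie 1019 bases apart on the plus strand, opposite to an intron of Nr6a1, a nuclear receptor gene. Mir181c (chr8:84178873-84178961) and Mir181d (chr8:84178716-84178787) lie 85 bases apart on the minus strand within an intron of Nanos3. No hairpin of another family lies within 10 kb of any of them. MiR-181a-5p and miR-181b-5p are thus cluster partners at both of their loci, and the mature sequence does not tell the loci apart.

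The hairpins of miR-181b-5p and of miR-181d are shown with both mature arms in capitals, since the 3p arms, which differ between the miR-181b loci, are what could separate them.
Mir181b-1: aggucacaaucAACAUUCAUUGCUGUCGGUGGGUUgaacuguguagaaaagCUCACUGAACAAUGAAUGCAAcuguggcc
Mir181b-2: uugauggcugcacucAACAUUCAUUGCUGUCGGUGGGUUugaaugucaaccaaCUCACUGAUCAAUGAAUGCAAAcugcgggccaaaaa
Mir181d: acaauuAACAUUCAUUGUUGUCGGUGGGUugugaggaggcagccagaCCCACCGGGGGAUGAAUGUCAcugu
RefSeq lists 10 distinct mature miR-181 miRNAs, of which 5 have a row in the table. The 3p arms of the miR-181a, miR-181b and miR-181c hairpins were not analysed here, so the locus behind miR-181b-5p could not be addressed.

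All 4 libraries were shallow on miRNAs. Within each library every value was a whole multiple of its smallest value (largest deviation 6.55e-11 of a step). If this step is worth 1 read, the control libraries held 43675 and 95020 miRNA reads and the heat stress libraries 100933 and 63338. The rule planned for recovering reads was not met in every library, so all read numbers rest on this assumption. A value of 0 then allows up to 3 reads, and 3 reads correspond to a value of 4.06 and 2.35 in control libraries 1 and 2 and of 2.37 and 3.00 in heat stress libraries 1 and 2. Such limits and all intervals given for reads cover counting error only. Among marker miRNAs, all 8 of a glia-enriched list (which includes miR-125b-5p and miR-21a-5p) were above 0 in every library, with summed values of 3697 and 3194 in control and 4389 and 5439 in heat stress, and 0 of the 8 passed the test described next. None of these 8 marks astrocytes alone. Blood markers (5 of 6 listed had a row) summed to 975 and 591 in control and 820 and 593 in heat stress. Of these, miR-486a-5p, miR-451a and miR-142a-5p were above 0 in every library, and miR-223-3p and miR-144-3p were at or near 0 throughout. MiR-486a-5p alone had values of 933 and 553 in control and 777 and 531 in heat stress. Muscle markers (2 of 3) summed to 39.3 and 108 in control and 22.1 and 27.0 in heat stress, and 1 of them, miR-1a-3p, was lower. Neuronal markers (4 of 4) summed to 589 and 541 in control and 486 and 415 in heat stress, with miR-124-3p at 0 in control library 2 and heat stress library 1. The liver marker miR-122-5p ranged from 20.5 to 90.8, and the 2 oligodendrocyte markers were not analysed here. Such sums rest largely on a few abundant members. These are miR-125b-5p and miR-100-5p among the glia-enriched miRNAs, miR-128-3p among the neuronal ones and miR-486a-5p among the blood markers. The part of these other sources in the values of the miR-181 family was not tested.

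MiR-181b-5p was the member that was higher after heat stress, and it was not detected in control preparations. Its normalized value was 0 in both control libraries, 31.6 in heat stress library 1 and 14.0 in heat stress library 2. Both heat stress libraries lay above the limits for 0 in the control libraries, and the groups did not overlap. Of the 313 miRNAs whose values averaged 1 or more, 16.0% had both heat stress values above both control values. In reads the values of miR-181b-5p are 0, 0, 40 and 14, if a step is worth 1 read. At the rates of the heat stress libraries, from 9.65 to 37.7 reads would fall in a control library. The mean of the heat stress group was 7.12-fold the limit of 3 reads per control library. This bound covers counting error in the control libraries only, not the spread between libraries. Without heat stress library 1 this bound was 4.37-fold, and with any other library left out it lay between 5.61 and 9.86. For single libraries the lowest ratio was 3.45, for heat stress library 2 against the limit of control library 1. By value, miR-181b-5p ranked 89 and 136 in the heat stress libraries, where 250 and 270 miRNAs were above 0.

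**Figure D1:**
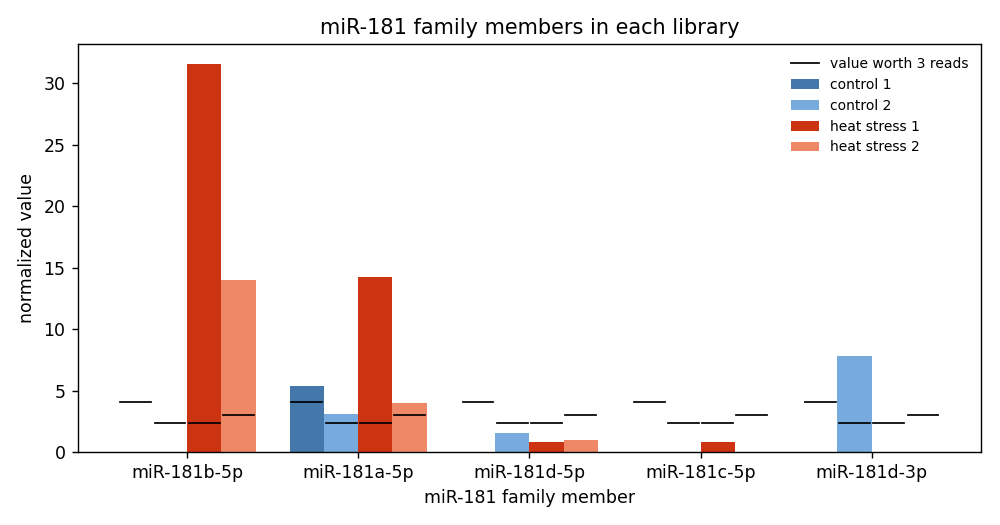
Bars give the normalized value (vertical axis) of each miR-181 family member (horizontal axis) in the 4 libraries, with control in blue and heat stress in red, and the black line over each bar position is the value worth 3 reads in that library. MiR-181b-5p reaches 31.6 and 14.0 in the heat stress libraries and is at 0 in both control libraries, whereas miR-181a-5p is present in all 4.

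The change was tested with limma on log2(value + 1) over the 313 miRNAs whose values averaged 1 or more. A miRNA was called when its fold change exceeded 2 and its unadjusted p was under 0.05. This threshold follows the study's methods. Of the 5 members, 3 could be tested, namely miR-181b-5p, miR-181a-5p and miR-181d-3p. Of these, 1 was called higher and 0 lower, beside 4.47% of all tested miRNAs called higher and 2.88% called lower. MiR-181b-5p had a log2 change of 4.47 (standard error 0.903), with an unadjusted limma p of 0.00443 and an adjusted p of 0.513 after Benjamini-Hochberg adjustment over all 313. Over all of them, 0 had an adjusted p under 0.05 with limma, against 23 with an unadjusted p under 0.05, so the call of miR-181b-5p does not survive adjustment. A miRNA at 0 in both libraries of a group has no spread there, and its log2 change depends on the value added. The bound in reads does not depend on that value, but it leaves out the spread between libraries. For any single miRNA, the smallest two-sided p of an exact permutation test on these 4 libraries is 0.333.

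**Figure D2:**
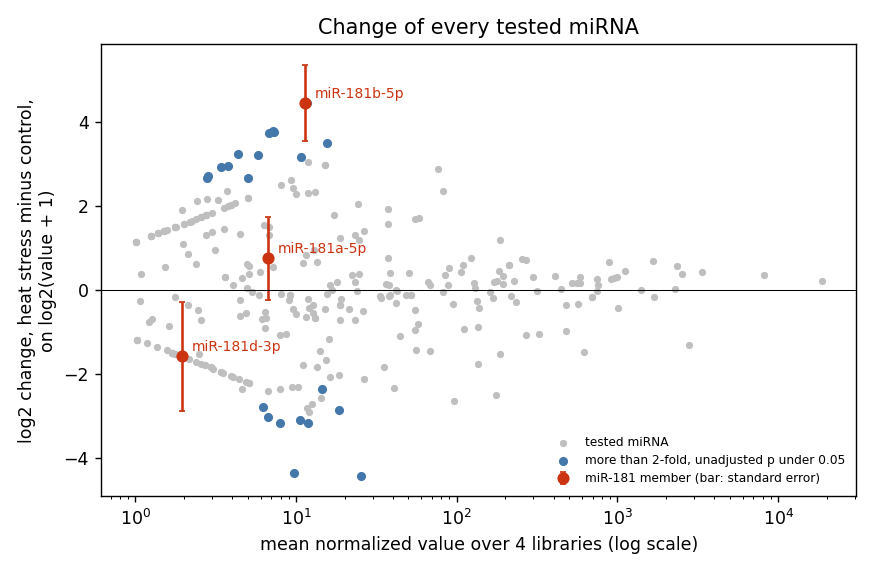
Each point is 1 of the 313 tested miRNAs, with its mean normalized value over the 4 libraries on a log axis (horizontal) and its log2 change between heat stress and control on the log2(value + 1) scale (vertical). The 23 called miRNAs are blue and the 3 tested miR-181 members are red with standard errors, miR-181b-5p being at 4.47, miR-181a-5p at 0.76 and miR-181d-3p at -1.57.

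MiR-181a-5p, the cluster and seed partner of miR-181b-5p, did not pass the test. Control libraries 1 and 2 had values of 5.42 and 3.13, and heat stress libraries 1 and 2 had 14.2 and 4.00. Heat stress library 1 stood above the rest, while heat stress library 2 lay between the control libraries, so the groups overlapped. In reads these values are 4, 4, 18 and 4. The log2 change was 0.76 (standard error 0.995), with a Benjamini-Hochberg adjusted limma p of 0.842. The change was smaller than its standard error. The ratio of group means was 2.13, and without heat stress library 1 it was 0.937, with a log2 change of -0.041, so the direction rested on that library.

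The miR-181c/d pair was close to the limit of detection. MiR-181d-5p, which has the seed of miR-181b-5p, had values of 0 and 1.56 in control and of 0.790 and 1.00 after heat stress, which is at most 2 reads in any library. MiR-181c-5p was at 0.790 in heat stress library 1, a single read, and at 0 in the other 3 libraries. Both had a mean value under 1 and were left out of the test. No difference between groups was detectable for either at this depth.

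MiR-181d-3p, from the opposite arm of the miR-181d hairpin, was found in 1 library. Its value was 7.82 in control library 2, or 10 reads, and 0 in control library 1 and both heat stress libraries. In control library 2 the 3p arm thus had 10 reads and the 5p arm 2, whereas the heat stress libraries had 0 reads of the 3p arm and 1 read each of the 5p arm. Its log2 change was -1.57 (standard error 1.30), with a Benjamini-Hochberg adjusted limma p of 0.686. Without control library 2 the change was 0. Without control library 1 it was -3.14 and passed the threshold, with an unadjusted p of 0.00708 and an adjusted p of 0.140 from limma, so the call depended on which control library was kept.

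The median log2 change of the 3 tested members was 0.76, beside 0.12 over all 313, and it stayed at 0.76 with miR-181b-5p set to its bound. This median is the value of miR-181a-5p, whose direction rested on heat stress library 1, and so does not describe the family. The other tested members, miR-181b-5p and miR-181d-3p, passed the filter through a single group and were at 0 in the other. MiR-181b-5p was the one member of the 3 whose heat stress libraries both lay above both control libraries, an arrangement found in 16.0% of all tested miRNAs, while 11.5% had the reverse.

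Summed over the family, miR-181 reads were more frequent in the heat stress libraries, and miR-181b-5p made up most of the difference. All 5 members together made up 91.6 reads per 1000000 miRNA reads in control library 1 and 168 in control library 2. After heat stress the sum was 594 in library 1 and 300.0 in library 2, so the groups did not overlap. The exact 95% Clopper-Pearson intervals of control library 2 (96.2 to 273) and heat stress library 2 (180.6 to 468) did overlap. The other 4 members without miR-181b-5p summed to 130.0 ± 54.3 per 1000000 (SD, n = 2) in control and 139 ± 84.3 (SD, n = 2) in heat stress, so the group means differed by less than either SD. By library these sums were 91.6 and 168 in control, then 198 and 78.9 after heat stress. The near-equal means rest on miR-181d-3p, whose 10 reads were in control library 2. The 5p arms without miR-181b-5p summed to 77.4 ± 20.1 (SD, n = 2) in control and 139 ± 84.3 (SD, n = 2) in heat stress. In control libraries 1 and 2 this sum was 91.6 and 63.1, and heat stress library 2 lay between them. MiR-181b-5p itself was at 396 per 1000000 (interval 283 to 540) in heat stress library 1 and at 221 (interval 121 to 371) in heat stress library 2. The 0 reads in control libraries 1 and 2 allow up to 68.7 and 31.6 per 1000000.

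**Figure D3:**
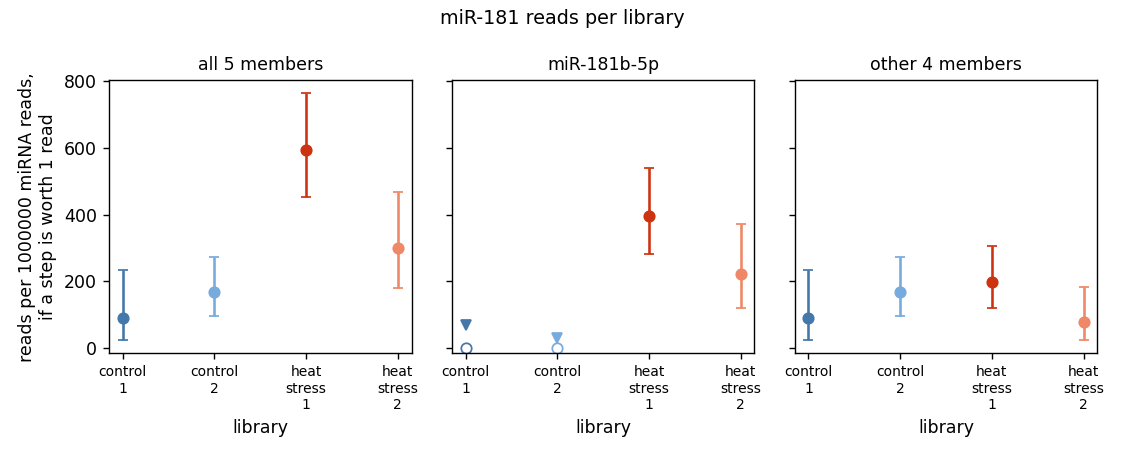
Reads per 1000000 miRNA reads (vertical axis), if a step is worth 1 read, are plotted per library (horizontal axis) for all 5 members, for miR-181b-5p and for the other 4 members, with 95% Clopper-Pearson intervals, open circles for 0 reads and triangles for the limit of 3 reads. The other 4 members overlap between control and heat stress, and miR-181b-5p lies at 396 and 221 in heat stress against limits of 68.7 and 31.6 in control.

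The ratio of miR-181b-5p to miR-181a-5p was described by shares of reads, which were few in the control libraries. Whether it differed between the groups was not tested by these shares. Among reads of miR-181a-5p and miR-181b-5p, the share of miR-181b-5p was 69.0% in heat stress library 1 (40 of 58 reads, exact 95% interval 55.5% to 80.5%). In heat stress library 2 it was 77.8% (14 of 18, interval 52.4% to 93.6%). In each control library it was 0 of 4 reads, which allows a share of up to 60.2% by the same exact interval. The limit of 3 reads, which is rough for so few reads, allows up to 75.0%. The intervals of both heat stress libraries reach below either limit, but such overlap is not a test of a difference. Of all family reads, miR-181b-5p took 66.7% in heat stress library 1 (40 of 60, interval 53.3% to 78.3%) and 73.7% in heat stress library 2 (14 of 19, interval 48.8% to 90.9%). Control library 1 had 0 of 4 reads, both for all family reads and for 5p arms alone. This allows up to 60.2% by the exact interval and 75.0% by the limit of 3 reads, inside the intervals of both heat stress libraries. Control library 2 had 0 of 16 family reads, which allows up to 20.6% by the exact interval and up to 18.8% by the limit of 3 reads. Both lie below the intervals of the heat stress libraries, but 10 of the 16 reads were miR-181d-3p. Counting 5p arms alone, the 0 of 6 reads there allow up to 45.9% by the exact interval, below the intervals of both heat stress libraries, and up to 50% by the limit of 3 reads, inside the interval of heat stress library 2.

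The difference in change between miR-181b-5p and each of its 4 relatives was then compared library by library. On the log2(value + 1) scale, miR-181b-5p lay below miR-181a-5p by -2.68 and -2.05 in the control libraries and above it by 1.10 and 1.59 in the heat stress libraries. The shift between groups was 3.71, with the groups not overlapping. The corresponding shifts were 4.05 against miR-181c-5p, 4.23 against miR-181d-5p and 6.04 against miR-181d-3p. With at most 2 reads of miR-181c-5p or miR-181d-5p in any library, these shifts largely repeat the values of miR-181b-5p itself. The shift against miR-181d-3p adds its 10 reads in control library 2. The groups did not overlap here either, which follows from the 0 of miR-181b-5p in both control libraries and these low partner values. For each of the 4 the two-sided exact permutation p was 0.333 and remained 0.333 after Benjamini-Hochberg adjustment over the 4, which is the smallest value that 2 against 2 libraries can give. The relatives were compared with the same miR-181b-5p values, so the 4 shifts are not independent.

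A gap of this size was found in a small part of all pairs of related miRNAs and in a larger part of the pairs with low values. MiR-181b-5p ranked 1 of 313 tested miRNAs by log2 change, so a pair that holds it tends to have a large gap. The comparison was also added after the values were seen, so the place of this pair is a description only. RefSeq sequences matched 262 of the 313 tested miRNAs. They gave 86 pairs with a shared seed, whose log2 changes differed by a median of 0.51. The smallest difference was 0, and pairs with identical values lower this median and make a gap look rarer. Such pairs were not taken out. Apart from miR-181a-5p and miR-181b-5p, which differed by 3.71, 2 of 85 such pairs differed at least as much, namely miR-30c-1-3p with miR-30c-2-3p and miR-32-5p with miR-92b-3p. Among the 14 pairs in which both mean values were under 50, as in the miR-181 pair, the median was 1.74. The same 2 pairs, here 2 of 13 others, again differed at least as much. Another set was formed by 134 pairs whose mature positions lie within 10 kb, arms of the same hairpin included, with a median of 1.14 and 8 of 133 other pairs at or above 3.71. In 52 of the 134 pairs both mean values were under 50, with a median of 1.76 and 6 of 51 other pairs at or above 3.71. Of 12 pairs that share both seed and cluster, the miR-181 pair differed most (median 0.92, 0 of 11 others as much). That place depended on the libraries used. Without control library 1, 2 of the 11 differed at least as much, and 1 did without control library 2 or without heat stress library 2. For the shared seed alone, the 2 pairs became 8 without control library 1 and 4 without heat stress library 2. Pairs share members and libraries, and these figures describe the 4 libraries without a test.

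**Figure D4:**
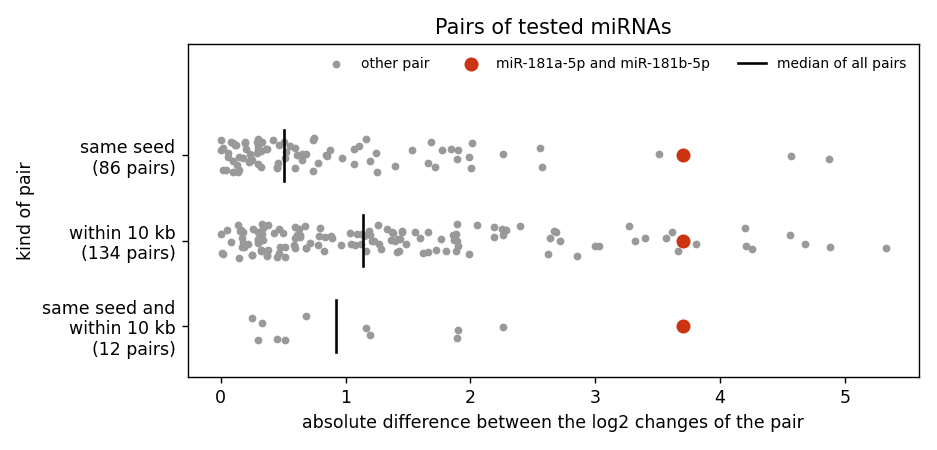
Each point is a pair of tested miRNAs, placed by the absolute difference between their log2 changes on the log2(value + 1) scale (horizontal axis), for pairs with the same seed, pairs within 10 kb and pairs with both (vertical axis, scattered for visibility). Black lines are medians of 0.51, 1.14 and 0.92, and the red point at 3.71 is miR-181a-5p with miR-181b-5p.

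Values of 0 beside values such as those of miR-181b-5p also occurred between replicates. Heat stress library 2 held 14 reads of miR-181b-5p. Counting miRNAs that had 14 or more reads in one replicate and a value of 0 in its partner gave 26 in control and likewise 26 in heat stress. Of the 12 miRNAs, miR-181b-5p included, with both heat stress values between 14.0 and 31.6, 10 were above 0 in both control libraries, 1 was at 0 in a single control library, and miR-181b-5p was at 0 in both. These bounds are the values of miR-181b-5p itself and leave out other miRNAs at 0 in both control libraries. Examples chosen after their values were seen are miR-712-3p (12.6 and 34.0 in heat stress libraries 1 and 2) and miR-1947-5p (20.5 and 8.01).

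The 5 miRNAs most like miR-181b-5p over the 4 libraries, by Euclidean distance of log2(value + 1), were miR-1947-5p (distance 0.949), miR-16-5p (1.02), miR-712-3p (1.75), miR-345-3p (1.78) and miR-126a-3p (2.03). Of these, 4 were listed at 0 in both control libraries, and miR-126a-3p was at 2.71 and 0. For miR-181a-5p, with each miRNA centred on its own mean, the nearest were miR-27a-3p (0.478), miR-5100 (0.522), miR-361-3p (0.540), miR-1198-5p (0.700) and miR-139-5p (0.847). Like miR-181a-5p, all 5 had their highest value in heat stress library 1. Both lists were picked by values in these same libraries, so such shared patterns follow from the choice.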

How the data were processed

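Small RNA of exosome-enriched preparations was sequenced by the authors in 2 control and 2 heat stress libraries. They removed adapters, reads under 17 nt and low-quality reads and compared clean reads with the genome using Bowtie, whereas the submitters' processing notes name BWA. The build is not given in the sources used here. The deposited values are a normalized signal per mature miRNA. The authors' own log2 fold changes and p-values were deposited too and were not used, nor was their table of selected miRNAs.

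Limma (version 3.58.1, R version 4.3.3) was fitted to log2(value + 1) over miRNAs averaging 1 or more, with condition alone in the model. The fit was also run on simulated counts with known changes. That simulation did not model a miRNA absent from a whole group, such as miR-181b-5p in control. Groups were taken from the sample titles. Shares carry exact intervals (scipy version 1.17.1). Positions came from GENCODE M21. Alternatives were other added values, filters, scalings, a mean-dependent variance prior, a replicate block and leaving out each library. All members were described, and the 5 miRNAs nearest to miR-181b-5p and to miR-181a-5p were named by a fixed distance rule. The members and lists were chosen with earlier results of these data known. The pair comparison was added after the values were seen. Figures were drawn with matplotlib (version 3.10.9).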

Additional observations from a re-analysis of the deposited data

How the results depend on the processing

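MiR-181b-5p stayed higher and past the threshold in all 11 alternatives, with a log2 change from 3.91 (without heat stress library 1) to 8.21 (log2(CPM + 1)), an unadjusted limma p from 0.00145 to 0.0499 and an adjusted p from 0.0337 to 0.735. The adjusted p was under 0.05 in the 2 fits without a heat stress library, where the spread of miR-181b-5p comes from the control pair, both at 0. In fits without a library, the lone library is assumed to vary like the other group, and 1 residual degree of freedom is left. In those fits the log2 change of miR-181a-5p ranged from -0.041 to 1.56 and that of miR-181d-3p from -3.14 to 0, with 0 to 1 members lower, 10 to 39 of all tested miRNAs higher and 3 to 27 lower. With all 4 libraries, the 14 higher miRNAs became 6 with a mean value of at least 10 and 6 with a mean-dependent variance prior, and the 9 lower became 2 with 0.1 added, 3 with log2(CPM + 1) and 4 with the replicate block. With the replicate block miR-181b-5p kept a log2 change of 4.47 (unadjusted p = 0.0145 from limma). Same-numbered libraries deviated with r = -0.019 over 313 miRNAs. With 2 libraries per group this is a single contrast, and whether same-numbered libraries share a culture or preparation is not known. With 0.1 added, the shift of miR-181b-5p against miR-181a-5p was 6.86 in place of 3.71. The cause of these changes was not tested. The planned count models (edgeR, DESeq2) were not run, because the rule for recovering reads was met in 2 of the 4 libraries.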
